A study of Mus musculus with 12 samples.

Results

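The Notch genes described here are 10 genes of the Notch pathway that encode receptors (Notch1, Notch2), ligands (Dll1, Dll4, Jag1, Jag2) and transcriptional targets (Hes1, Hey1, Hey2, Heyl). They were chosen by name, and all 10 were found among 22367 protein-coding genes annotated on chromosomes 1 to 19, X and Y. For each gene, the BRG1-binding regions of wild-type cardiac precursors (CPs) were counted at promoters, defined as 1 kb either side of an annotated transcription start site (TSS), in the rest of the gene body, and within 100 kb of the gene. Of 3473 distinct regions in the list, 17 lay within 100 kb of these genes.

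BRG1 is an ATPase of BAF chromatin remodeling complexes, in which BRM can take its place, and ChIPseq recovers the DNA crosslinked to it. The CPs were wild type, of strain W4/129S6, and came from mouse embryonic stem cells that formed embryoid bodies with VEGF, Activin and BMP4 and were then grown as monolayers with FGFs. Chromatin was crosslinked with disuccinimidyl glutarate and formaldehyde, digested with MNase and precipitated with an antibody against BRG1. Behind the list stand 2 BRG1 ChIP libraries and 1 input library, and 9 other libraries of the series were not analysed here. The list gives positions on mm9 without height or P-value, so no spread between replicates can be given and depth is unknown. The list was taken as labelled, as that of CPs. Its number of rows is the one the study gives for CPs, but its number of distinct regions equals the one the study gives for cardiomyocytes, and what this means for the cells behind the distinct regions could not be settled from the sources used here. A gene without a region may be unbound or below the authors' threshold. No RNA was used, so the cell type was not checked against marker expression.

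Notch receptors are cell surface proteins that bind ligands on neighboring cells. Ligand binding leads to cleavage of the receptor, and the released intracellular domain enters the nucleus and joins the DNA-binding protein RBPJ and Mastermind coactivators at target genes, among them Hes and Hey genes, which encode basic helix-loop-helix repressors. In the heart, the pathway is known for its roles in endocardium, valve formation, trabeculation and outflow tract development.

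Sequences are shown for regions at the receptors and at ligands with a promoter region, so that the positions below can be read beside their bases. All come from mm9 by the deposited coordinates and are written 5′ to 3′ on the strand of the gene. The Notch1 stretch (chr2:26359577-26359876, minus strand) is part of a promoter region, upstream of the TSS in it, and lies outside annotated exons. The Notch2 stretch (chr3:97866206-97866505, plus strand) is the end of an intronic region. In both, capitals mark the RBPJ word GTGGGAA or its reverse complement TTCCCAC, and the stretches were chosen to hold it.
Notch1 promoter region, part: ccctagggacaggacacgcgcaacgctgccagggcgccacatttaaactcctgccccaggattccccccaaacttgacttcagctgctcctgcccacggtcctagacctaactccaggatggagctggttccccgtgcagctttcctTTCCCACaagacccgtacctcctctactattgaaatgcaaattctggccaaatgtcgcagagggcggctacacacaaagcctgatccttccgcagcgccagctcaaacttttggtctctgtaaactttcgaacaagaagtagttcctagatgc
Notch2 intronic region, part: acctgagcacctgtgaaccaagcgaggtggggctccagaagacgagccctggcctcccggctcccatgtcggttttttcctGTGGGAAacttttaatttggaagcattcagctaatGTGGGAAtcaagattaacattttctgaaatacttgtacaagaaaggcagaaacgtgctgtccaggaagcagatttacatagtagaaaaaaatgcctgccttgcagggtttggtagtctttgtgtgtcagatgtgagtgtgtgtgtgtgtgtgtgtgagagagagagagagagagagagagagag
The Dll1 region (chr17:15511886-15512165, minus strand) is given whole, with its 53 coding bases in capitals. The Jag1 promoter region (chr2:136942766-136942885, minus strand) and the Jag1 upstream region (chr2:137001126-137001285, minus strand) are given whole, with each CG in capitals, and neither overlaps an annotated exon.
Dll1 promoter region: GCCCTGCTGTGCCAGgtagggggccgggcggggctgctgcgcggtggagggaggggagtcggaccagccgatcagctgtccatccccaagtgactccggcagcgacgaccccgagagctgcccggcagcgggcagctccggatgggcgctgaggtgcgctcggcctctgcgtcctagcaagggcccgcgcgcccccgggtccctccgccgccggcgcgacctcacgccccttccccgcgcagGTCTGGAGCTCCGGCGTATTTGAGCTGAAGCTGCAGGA
Jag1 promoter region: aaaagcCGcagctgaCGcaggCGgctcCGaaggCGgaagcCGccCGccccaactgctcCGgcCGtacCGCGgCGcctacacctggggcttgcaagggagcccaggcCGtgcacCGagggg
Jag1 upstream region: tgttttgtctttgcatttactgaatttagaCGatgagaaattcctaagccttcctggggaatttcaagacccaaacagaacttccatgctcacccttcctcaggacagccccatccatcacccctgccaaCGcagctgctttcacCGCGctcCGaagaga
The 2 Jag1 regions differed in base content. The promoter region held 14 CG in 120 bp at 73.3% GC, and the upstream region held 5 CG in 160 bp at 49.4% GC.

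Of the 10 Notch genes, 5 (Notch1, Notch2, Dll1, Jag1 and Hes1) had a region at a promoter, where 11.9% of protein-coding genes did. In the body away from promoters, 2 genes (Notch2 and Hey1) had a region, against 1.85% of protein-coding genes. Within 100 kb, 8 genes had a region, against 40.3%. The exceptions were Hey2 and Heyl. Measured from the nearest annotated TSS, coding or not, to the nearest region's midpoint, the median distance over the 10 genes was 1.46 kb. The range was 0.0385 to 767 kb. Over all protein-coding genes the median was 166 kb, with quartiles of 46.3 and 533 kb. With TSSs of protein-coding transcripts alone, the medians were 1.94 kb over the 10 genes and 169 kb over all. By role, both receptors, 2 of 4 ligands and 1 of 4 targets had a promoter region. Promoter regions were more frequent at genes rich in CpG. Among genes with a high CpG promoter (at least 55% GC and a CpG observed/expected ratio of at least 0.75 within 500 bp of a coding TSS), 31.1% had a promoter region, and among the others 4.18% did. High CpG promoters were found at 6 of the Notch genes, and 3 of these (Notch2, Dll1 and Jag1) had a promoter region. Hey1, Hey2 and Jag2 had a high CpG promoter without a region. The part of base content in the count over the Notch genes was not tested. With the 5′ end of each gene as its only TSS, 3 Notch genes had a promoter region (10.8% of protein-coding genes) and the median distance was 7.45 kb (174 kb over all). With regions on 2 or more rows alone, 1 gene had a promoter region (3.2%), 1 a body region (0.219%) and 4 a region within 100 kb (10.7%), and the median distance was 504 kb (974 kb).

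**Figure D1:**
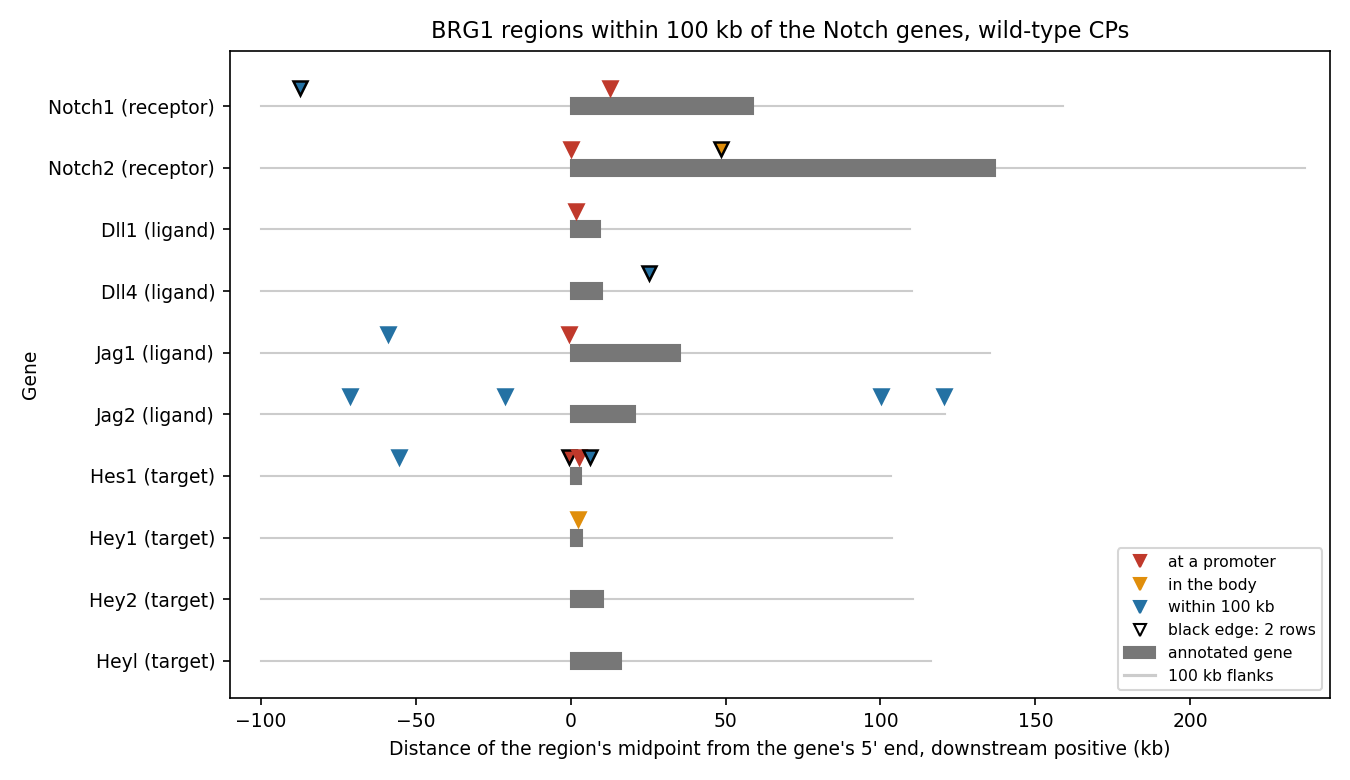
Regions within 100 kb of each of the 10 Notch genes, with the distance of the region's midpoint from the gene's 5′ end in kb on the horizontal axis. Triangles are regions, colored by class and edged in black where listed on 2 rows, gray bars are genes, and no region is drawn for Hey2 or Heyl.

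**Figure D2:**
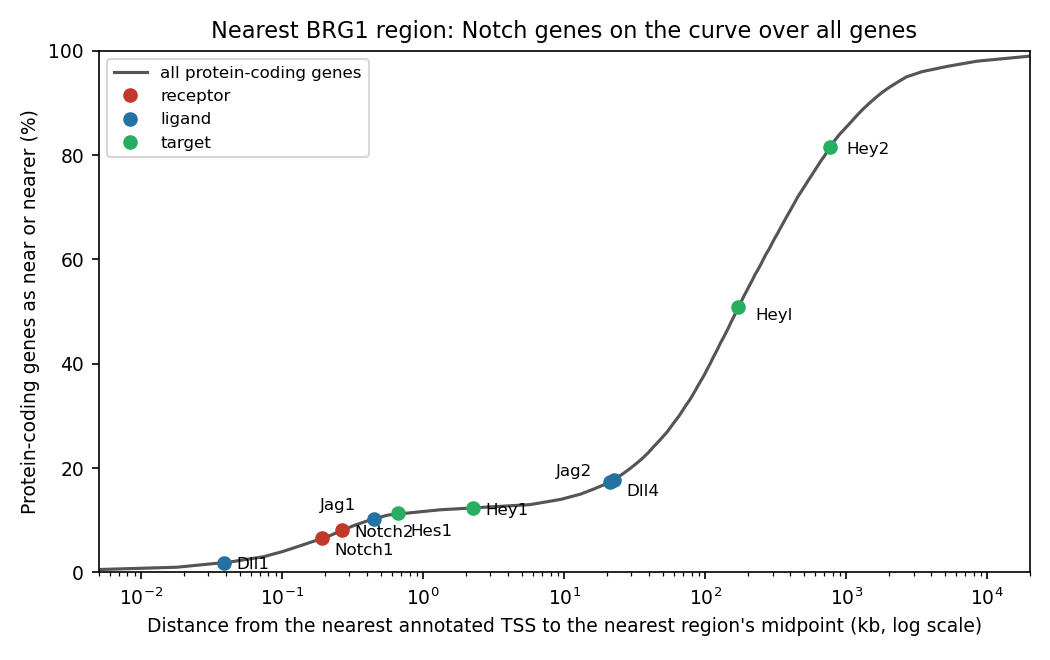
Distance from the nearest annotated TSS to the midpoint of the nearest region in kb (log scale) against the share of protein-coding genes that are as near or nearer. The line is all protein-coding genes, points are the 10 Notch genes by role, and they run from 0.0385 kb for Dll1 to 767 kb for Hey2. For Dll1 the nearest TSS is that of a transcript with a retained intron, and its protein-coding TSS is 0.914 kb from the midpoint.

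Notch1 (ENSMUSG00000026923), a receptor with roles in endocardium and valves, lies on the minus strand at chr2:26313423-26372183. Its promoter region at chr2:26359066-26360005 was 940 bp wide and spanned the TSS of 2 protein-coding transcripts. That TSS is not the 5′ end of the annotated gene, since other protein-coding transcripts start further upstream. No region lay within 1 kb of the TSSs of those upstream transcripts. The midpoint of the promoter region was 12.6 kb inside the gene. Of the region, 264 bp were UTR and 13 bp were coding, and 661 bp were intron of the longer transcripts. A width of 940 bp or more was found for 14.7% of all regions at promoters. The RBPJ word in the printed stretch lay 381 bp upstream of the TSS. A further region near Notch1, at chr2:26459406-26459865, was 87.2 kb from the gene and at the promoter of Agpat2, an enzyme of phospholipid synthesis.

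Notch2 (ENSMUSG00000027878), the other receptor, lies on the plus strand at chr3:97817461-97954290. A region of 480 bp at chr3:97817486-97817965 began 25 bp downstream of its TSS. It covered 136 bp of UTR, 73 bp of coding sequence and 271 bp of intron. Notch2 was also the gene with the widest of the 17 regions, of 1100 bp at chr3:97865406-97866505, wholly in an intron and 48.5 kb downstream of the TSS. This region was listed on 2 rows, and 4.63% of the regions away from promoters were as wide or wider. It held the RBPJ word on the plus strand at 2 places, which started 35 bp apart, and 1 GATA word, AGATAA. Both receptors thus had a region at or just downstream of a protein-coding TSS. Notch2 alone of the pair had a region wholly in an intron and away from its promoters.

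Dll1 (ENSMUSG00000014773), a Delta-type ligand, lies on the minus strand at chr17:15504318-15513836. Its region of 280 bp spanned the TSS of a transcript with a retained intron, and its near edge was 775 bp downstream of the TSS of the protein-coding transcript. The same bases lie at the promoter of A930024N18Rik, so the region cannot be assigned to either gene. Jag1 (ENSMUSG00000027276), a Serrate-type ligand that is mutated in Alagille syndrome, lies on the minus strand at chr2:136907192-136942380. Its promoter region of 120 bp ended 386 bp upstream of the TSS, and 92.8% of all regions at promoters were as wide or wider. The upstream region of 160 bp had its midpoint 58.8 kb from the TSS and lay at no annotated promoter. These 2 ligands had narrow promoter regions listed on 1 row each.

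Dll4 and Jag2 had no region at a promoter or in the body. For Dll4 (ENSMUSG00000027314, chr2:119151520-119161698, plus strand), a ligand of endothelial cells, the only region within 100 kb was chr2:119176346-119177225. It was 880 bp wide, listed on 2 rows, 14.6 kb past the end of the gene and at the promoter of Chac1, an enzyme of glutathione breakdown. Jag2 (ENSMUSG00000002799, chr12:114146801-114167706, minus strand), a Serrate-type ligand, had 4 regions within 100 kb, and each lay at the promoter of another gene. These genes were Gm17274 at 20.8 kb, Brf1, a transcription factor of RNA polymerase III, at 71 kb, Cdca4 at 79.2 kb and BC022687 at 99.4 kb. The region at BC022687 was the one just inside 100 kb, and the nearest one outside lay 112 kb from Notch1, at the promoter of Fam69b. At least 4 regions within 100 kb were found for 0.849% of protein-coding genes and for 2 of the 10 Notch genes, Jag2 and Hes1.

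Hes1 (ENSMUSG00000022528), a repressor that is a direct target of Notch signaling in many tissues, lies on the plus strand at chr16:30064470-30067882. It had 2 regions at promoters, and 0.228% of protein-coding genes had 2 or more. The first, of 600 bp at chr16:30063506-30064105, was listed on 2 rows and ended 365 bp upstream of the 5′ end of the annotated gene. That 5′ end belongs to a transcript without a coding sequence. From the TSS of the protein-coding transcript, the near edge of the region was 1.32 kb upstream. The other, of 200 bp at chr16:30067106-30067305, lay wholly in coding sequence, with its near edge 1.68 kb downstream of the same TSS. Hes1 therefore had no region within 1 kb of its protein-coding TSS. With protein-coding transcripts alone, 4 of the 10 Notch genes had a promoter region, against 11.8% of protein-coding genes.

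A region of 600 bp at chr16:30070286-30070885, listed on 2 rows, lay 2.4 kb past the end of Hes1 and at no promoter. Together these 3 regions spanned 7.38 kb, with gaps of 3000 and 2980 bp. In the whole list there were 6 groups of 3 or more regions with gaps of at most 10 kb, and Hes1 lay in one of them. A region further upstream of Hes1, at chr16:30008986-30009245, was 55.2 kb from the gene and at the promoter of 4632428C04Rik.

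**Figure D3:**
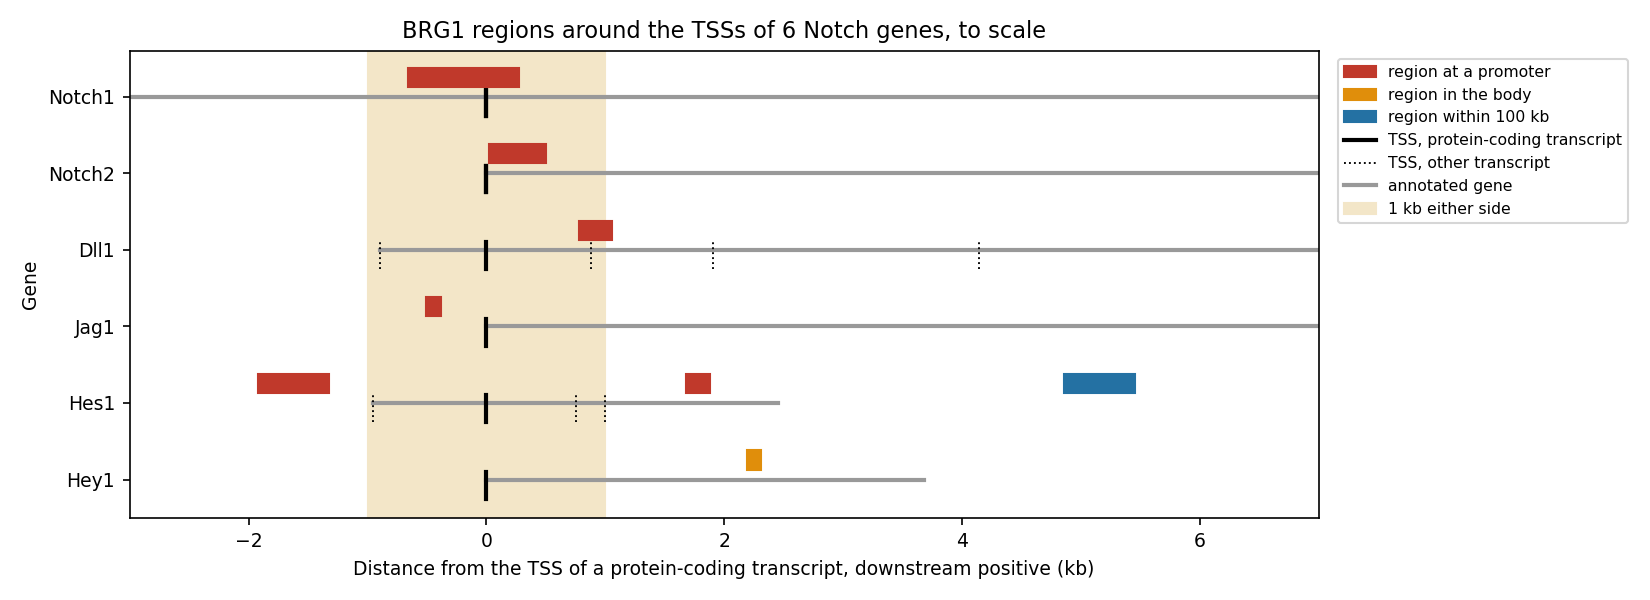
Regions around the TSS of a protein-coding transcript of 6 Notch genes, to scale, with the distance from that TSS in kb on the horizontal axis. Colored boxes are regions by class, solid and dotted ticks are TSSs of protein-coding and other transcripts, the shaded band is 1 kb either side, and the regions of Hes1 and Hey1 lie outside it.

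Hey1 (ENSMUSG00000040289), a repressor with roles in the atrioventricular canal and in vessels, lies on the minus strand at chr3:8663362-8667039. Its only region, of 120 bp at chr3:8664726-8664845, lay wholly in coding sequence with its midpoint 2.25 kb from the TSS. Regions wholly in coding sequence made up 3.11% of the list, 108 regions in all. Among the 17 regions near the Notch genes there were 2, at Hes1 and at Hey1. Hey2 (ENSMUSG00000019789, chr10:30552165-30562607, minus strand), a repressor of the ventricular myocardium, had its TSS 767 kb from the midpoint of the nearest region. Heyl (ENSMUSG00000032744, chr4:122910799-122927118, plus strand), a related repressor, ended 162 kb from the region nearest to it. Of the 4 targets, Hes1 and Hey1 thus had a region at or in the gene, and Hey2 and Heyl had none listed nearby.

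The 17 regions had a median width of 280 bp, against 360 bp over all distinct regions, and a median GC content of 72.4%, the same as over all. A row repeated in the list was found for 5 of the 17 regions (29.4%) and for 22.8% of all regions. What a repeated row stands for is not stated in the sources used here. Repeated regions were wider, at a median of 900 bp, than regions on 1 row, at 260 bp. Of the 9 regions outside promoters and bodies of the Notch genes, 7 lay at promoters of other genes and 2, at Jag1 and Hes1, lay at none. Over the whole list, 2566 of 3473 distinct regions lay at a promoter.

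**Figure D4:**
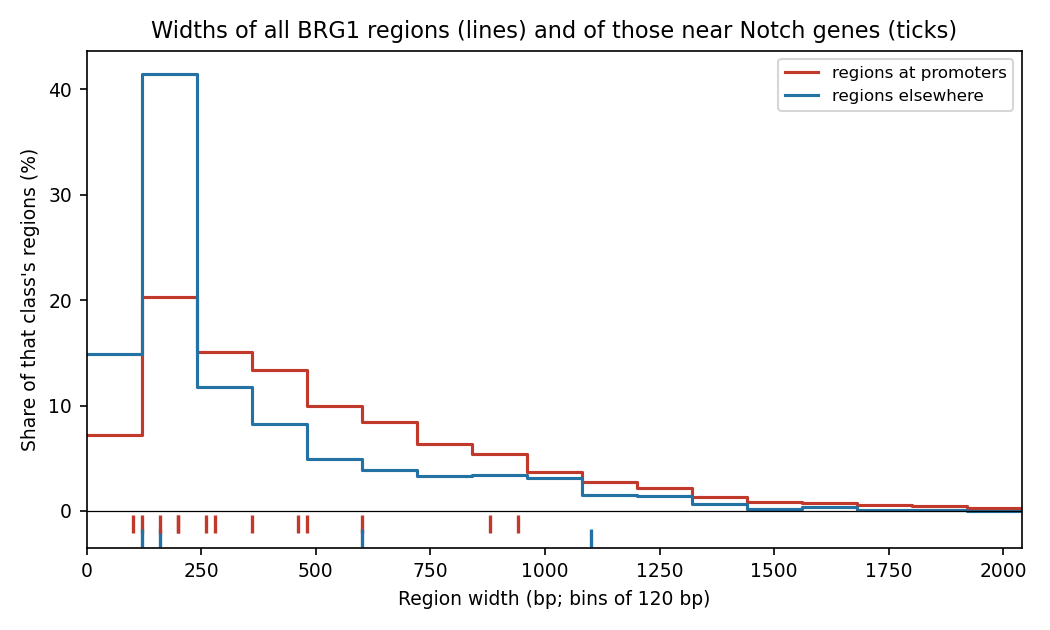
Widths of regions in bp, as the share of regions at promoters and elsewhere in bins of 120 bp (lines). Ticks below are the 17 regions near the Notch genes in the same colors, and the widest is the intronic region of Notch2, at 1100 bp.

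Words of DNA-binding proteins were counted on both strands of the 17 regions. The RBPJ word GTGGGAA was in 4 of them (23.5%) and in 7.54% of all regions. Those 4 were the promoter region of Notch1, the intronic region of Notch2, the region of Jag2 at Gm17274 and the region of Hes1 at 4632428C04Rik. Wide regions hold more words, and among all regions of 800 bp or more, the class of the Notch1 and Notch2 regions, 19.6% had the RBPJ word. Among those of at least 200 and under 400 bp, the class of the other 2, 5.19% had it. The Dll4 region is also in the wider class and did not have the word. In the narrower class, the regions of Dll1, of Jag2 at Cdca4 and of Hes1 in coding sequence did not have it either. In windows of 1000 bp centred on the midpoints, which have the same length for each region, GTGGGAA was in 6 of 17 and in 17.5% of all. The shorter word TGGGAA was in 6 of the 17 regions themselves (35.3%) and in 21.4% of all regions.

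Words bound by Hes and Hey proteins include the E-box CACGTG, the N-box CACNAG and the class C site CACGNG. The E-box is a form of the class C site, and the letters CACGAG fall under both of the others. The E-box was in 2 of 17 regions, at Dll4 and at Hes1, against 7.69% of all regions. The N-box was in 9 of 17 regions against 44.9%, and the class C site in 9 of 17 against 49.9%. Both shares are close to those over all regions. The GATA word AGATAA was in 1 of 17, against 10.1%, and the T-box word AGGTGTGA was in 0 of 17, against 0.921%. A word in a region does not show that its protein was bound there.

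A wider list of 55 Notch pathway genes had 17 genes (30.9%) with a promoter region, against 11.9% of protein-coding genes. With regions on 2 or more rows alone, 6 did, against 3.2%. Of these 55, 34 had a high CpG promoter, and 15 of those 34 had a promoter region, against 31.1% of all genes with a high CpG promoter. The counts by role, given next, stand beside the same 11.9%, and beside 31.1% for genes with a high CpG promoter. Such a promoter was found at 6 of 8 genes of the nuclear complex, 7 of 8 corepressors and 6 of 10 processing genes. It was found at 3 of 5 glycosylation genes and 7 of 11 of endocytosis and turnover. Of these, 5, 3, 2, 2 and 3 had a promoter region, in that order. Among the remaining receptors, ligands and other Hes and feedback genes, 0 of 2, 2 of 3 and 3 of 8 had a high CpG promoter. In the nuclear complex, 5 of 8 genes had a promoter region, namely the Mastermind coactivators Maml1 and Maml3 and the acetyltransferases Ep300, Crebbp and Kat2b. The nearest region to Rbpj itself had its midpoint 651 kb from a TSS of that gene. Among the corepressors there were 3 of 8, all of the Groucho family (Tle1, Tle3 and Tle4). The region at Tle4 was 2160 bp wide and listed on 6 rows.

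Ligand and receptor processing had 3 of 10 genes with a promoter region, the metalloproteases Adam10 and Adam17 and the γ-secretase subunit Psen2. Glycosylation had 2 of 5, the O-fucosyltransferase Pofut1 and the Fringe enzyme Lfng. Endocytosis and turnover had 4 of 11, the ubiquitin ligases or their subunits Mib1, Neurl1a, Fbxw7 and Dtx1. No promoter region was listed for the remaining receptors (0 of 2), the remaining ligands (0 of 3) or the other Hes and feedback genes (0 of 8), of which Bhlhe41 had a region in the body. The regions at Pofut1, Ep300, Tle1 and Tle3 also lay at a promoter of another annotated gene, which for Pofut1 was Plagl2.

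For comparison, 7 of 14 Hedgehog pathway genes (50%) had a promoter region, namely Ptch1, Smo, Gli3, Sufu, Boc, Cdon and Gas1, the same share as over the 10 Notch genes and again beside 11.9% of protein-coding genes. Of these 14, 6 had a high CpG promoter, and 5 of those 6 had a promoter region. The region at Boc also lay at a promoter of another annotated gene. Disp1 was not matched by that symbol. Marker genes of cell types that the culture could hold were counted in the same way. A promoter region was listed at 1 of 8 genes of cardiac progenitors (Isl1), 1 of 8 of endothelium and endocardium (Nfatc1) and 0 of 5 of pluripotent cells. These are 12.5%, 12.5% and 0%, beside 11.9% over protein-coding genes. A high CpG promoter was found at 1 of 8, 3 of 8 and 1 of 5 of these markers, in that order. Of those, 1, 1 and 0 had a promoter region, beside 31.1% of all genes with a high CpG promoter. Within 100 kb, a region was listed for 6 of the 8 cardiac progenitor genes (75%), 2 of the 8 endothelial and endocardial genes (25%) and 1 of the 5 pluripotency genes (20%), beside 40.3% of protein-coding genes. Nkx2-5 and Gata4 had regions in their bodies, as 1.85% of protein-coding genes did.

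**Figure D5:**
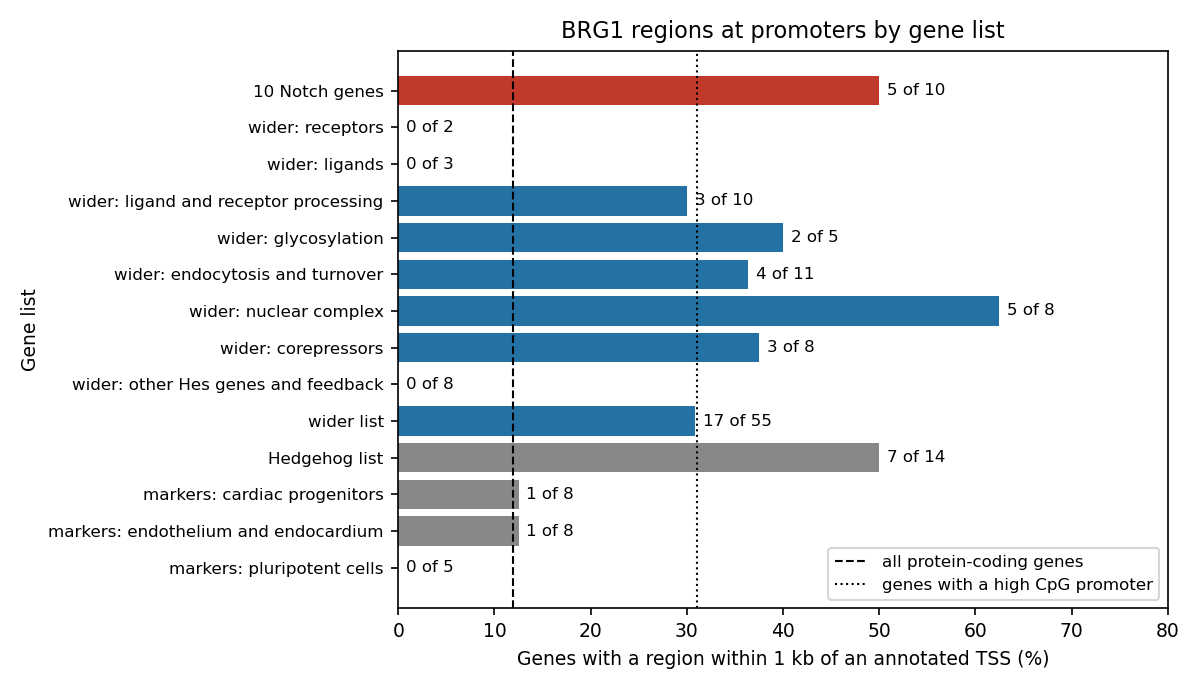
Share of genes in each list that had a promoter region, in percent, with counts beside the bars. Dashed and dotted lines give the shares over all protein-coding genes (11.9%) and over those with a high CpG promoter (31.1%), and the 10 Notch genes stand at 50%.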

How the data were processed

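The authors used fastq-mcf to trim the single-end reads and Bowtie for alignment to mm9, kept reads above a minimum mapping quality, and took bins with enrichment over input by a P-value threshold. The deposited list holds positions in bp on mm9. Versions of fastq-mcf and Bowtie, and the way in which the 2 ChIP libraries became 1 list, are not given in the sources used here. Starts were read as counted from 0 and printed counted from 1. The 4791 rows were reduced to 3473 distinct regions and set against the mm9 sequence and GENCODE release M1 with Python 3.11.15, numpy 2.4.6, pysam 0.24.0, matplotlib 3.10.9 and samtools 1.23.1. The members and lists were chosen with earlier results of these data known, and no test was made. Counts at promoters, in bodies and within 100 kb were set against the share over all protein-coding genes. The genes named are the 10 Notch genes, each gene whose promoter holds a region within 100 kb of them, and list genes with a region. Rbpj, Fam69b, Plagl2 and Disp1 are named besides these. An item of the lists is not reported here. Rbpj, Fam69b, body regions of list genes, the shares in coding sequence and the groups of regions were chosen after values were seen. High CpG promoters were first taken at the 5′ end of the gene, which is not the protein-coding TSS nearest to the region at Notch1 or Dll1, and were then taken at any protein-coding TSS, after the list had been seen. With the 5′ end, 31.1% of high CpG genes and 5.55% of the others had a promoter region. Overlaps and distances were tested on simulated lists with planted regions. Depth per library is unknown, so precision cannot be given.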

Additional observations from a re-analysis of the deposited data

How the results depend on the processing

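For 7 results, 31 alternatives were tried, of which 2 were chosen after seeing the data, and 20 stayed within 1.5 times the value reported. That limit was applied to the value over the Notch genes or lists, not to the share over all genes or regions beside it. The shorter RBPJ word TGGGAA stayed within it, in 6 of 17 regions. Of all regions, 21.4% had TGGGAA and 7.54% had GTGGGAA. With regions on 2 or more rows alone, 1 Notch gene (Hes1) had a promoter region (3.2% of protein-coding genes), 1 a body region (0.219%) and 4 a region within 100 kb (10.7%), the nearest region was at a median of 504 kb (974 kb over all protein-coding genes), and 6 genes of the wider list had a promoter region. With regions of at least the median width, 3 Notch genes had a promoter region (6.86%). With the 5′ end of the gene as its only TSS, 3 did (10.8%), without Notch1 and Dll1, and the median distance was 7.45 kb (174 kb over all). Counting promoter regions that overlap the gene as body regions gave 5 genes (12.3%). Regions within 100 kb fell from 17 to 11 with 50 kb, and to 10 without those at promoters of other genes. The cause of these shifts was not tested. Leaving out a replicate could not be run, because the deposited list is a single one. No paired analysis was possible because no value belongs to a single library. A stricter threshold of the authors was not run, since the list has no score, and depth limits are unknown.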
